A study of Rattus norvegicus with 14 samples.

Results

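The SLC25 genes encode the mitochondrial carriers, and 37 of them were measured in rat liver among 14497 genes with a probe set of their own. Members were the genes whose only symbol in the platform annotation was Slc25a followed by a number, which used no measured value. Where a gene had several probe sets, as 4 members did, the probe set of highest mean intensity stood for it. The current rat annotation, RefSeq GRCr8, lists 49 such symbols for coding genes, and the other 12, among them the aspartate-glutamate carriers Slc25a12 and Slc25a13, were not analysed here.

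Mitochondrial carriers sit in the inner mitochondrial membrane and exchange nucleotides, phosphate, amino acids, carboxylic acids, acylcarnitines and cofactors between the cytosol and the matrix. They are imported through the outer membrane without a cleaved presequence in most cases. In liver they connect the cytosolic and mitochondrial parts of the urea cycle, gluconeogenesis, fatty acid synthesis and fatty acid oxidation. The adenine nucleotide carrier exists in several isoforms, of which Slc25a4 is known as the form of heart and skeletal muscle and Slc25a5 as the form of many proliferating and epithelial tissues.

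Transcript levels came from 12 male F344 rats in 4 groups of 3, with formalin-fixed liver captured by laser from sections and read on Affymetrix Rat Gene ST 1.0 arrays. Normal liver was from unmanipulated adult rats. AAF/PH rats received 2-acetylaminofluorene (AAF), a carcinogen that keeps hepatocytes from dividing, as a 2.5 mg pellet lasting 14 days from day 1, lost part of the liver by partial hepatectomy (PH) on day 7 and were killed on day 14. The labels give oval cells, the progenitor-like cells of such livers, as the feature of this tissue. The Solt-Farber (SF) rats received diethylnitrosamine, 200 mg/kg on day 1, then the same AAF pellet on day 14, and on day 21 a partial hepatectomy with a pellet lasting 21 days. That pellet was placebo in 1 group and rapamycin, an inhibitor of the kinase mTOR, at 2.5 mg/kg/day in the other, and the rats were killed on day 70. The foci were lesions chosen for staining with the placental glutathione S-transferase GSTP, so both foci groups also carry the carcinogen, the AAF and the surgery, and by its stated release time the last pellet was spent before they were taken. The labels give no ages.

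The captured tissue was not 1 cell type. The summed intensity of 10 hepatocyte markers was 35090 to 37970 in normal liver, 19540 to 22590 in AAF/PH liver, 26300 to 30360 in placebo foci and 22840 to 34460 in rapamycin foci. Hepatocyte transcripts were thus still read in the tissue labelled for oval cells, at a sum below that of every normal animal. Of 8 measured biliary and oval cell markers 7 were higher in AAF/PH liver than in normal liver, 3 in placebo foci and 2 in rapamycin foci. That is 87.5%, 37.5% and 25%, where 20.0%, 8.22% and 6.53% of all genes passed the same threshold in either direction. The sums of these markers were 134.8 to 174.6, 640.1 to 867.7, 408.1 to 643.4 and 224 to 425.7 in the same order of groups, normal liver first. In such bulk tissue fewer cells of a type and less RNA per cell cannot be told apart. Rapamycin animal 3 stood apart from the other animals: the interquartile range of its log2 values over all genes was 1.57 to 1.71 on its 3 arrays, a pair from 1 RNA and the last from a new laser capture, against 1.98 to 2.80 on the other 11 arrays. It was kept as 1 animal. Since all groups share 1 estimate of the spread, leaving it out also changes which differences pass between the other groups, and those members are named after the counts. Between the first pair of its arrays the members differed by a median of 0.19 on the log2 scale. Among the other arrays the interquartile range over all genes was 2.36 to 2.80 in normal liver and 1.98 to 2.26 in AAF/PH liver, without overlap. It was 2.14 to 2.61 in placebo foci. The part of these ranges in the differences of bright and dim members was not tested.

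The promoters of 4 members are shown because they belong to 2 sets of related carriers whose members parted from each other: the nucleotide carriers Slc25a4 and Slc25a5, and the ATP-Mg/phosphate carriers Slc25a23 and Slc25a25. Each is the 250 bases before the gene's annotated start in RefSeq GRCr8, written 5′ to 3′ along the gene. Slc25a4 lies at chr16:52805271-52805520 on the plus strand, Slc25a5 at chrX:120897366-120897615 on the plus strand, Slc25a23 at chr9:1985366-1985615 on the minus strand and Slc25a25 at chr3:36116582-36116831 on the minus strand. Capitals mark matches, on either strand, to the letters of the motifs listed after them.
Slc25a4: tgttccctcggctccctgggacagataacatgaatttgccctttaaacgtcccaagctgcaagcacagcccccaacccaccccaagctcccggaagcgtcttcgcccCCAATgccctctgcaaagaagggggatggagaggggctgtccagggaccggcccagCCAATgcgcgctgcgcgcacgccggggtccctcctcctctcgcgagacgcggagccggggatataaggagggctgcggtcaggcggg
Slc25a5: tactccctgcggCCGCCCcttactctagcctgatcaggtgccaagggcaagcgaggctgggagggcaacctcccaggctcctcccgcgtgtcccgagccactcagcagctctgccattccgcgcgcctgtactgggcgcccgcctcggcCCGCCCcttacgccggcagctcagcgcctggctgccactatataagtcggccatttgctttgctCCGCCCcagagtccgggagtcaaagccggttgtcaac
Slc25a23: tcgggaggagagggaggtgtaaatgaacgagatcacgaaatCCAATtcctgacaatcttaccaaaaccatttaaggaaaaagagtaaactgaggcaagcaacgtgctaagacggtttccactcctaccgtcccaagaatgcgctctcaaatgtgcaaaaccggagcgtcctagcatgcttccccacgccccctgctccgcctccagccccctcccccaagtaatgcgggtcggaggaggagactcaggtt
Slc25a25: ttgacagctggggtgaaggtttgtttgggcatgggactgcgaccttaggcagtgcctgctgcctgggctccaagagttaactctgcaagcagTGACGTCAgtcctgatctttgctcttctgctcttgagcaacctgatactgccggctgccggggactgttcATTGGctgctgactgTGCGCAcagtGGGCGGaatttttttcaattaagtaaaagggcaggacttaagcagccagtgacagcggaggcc

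Motifs were searched as letters on both strands in the 32 members matched to a promoter and in all 27457 promoters of the table. The GC box, GGGCGG, was in 62.5% of the members' promoters and 32.4% of all promoters. The CCAAT box, CCAAT, was in 56.2% and 34.3%. The cyclic AMP response element, TGACGTCA, was in 3.1% and 1.7%, and its core TGACG, which lies within it in both orientations, in 21.9% and 19.0%. The core of the NRF1 motif, TGCGCA, was in 6.2% and 6.6%, the E-box CACGTG in 6.2% and 5.8%, and the TATA box, TATAAA, in 3.1% and 13.1%. The members' promoters had a median GC content of 58.2%, against 52.0% for all promoters. The Slc25a4 promoter held CCAAT boxes at 143 to 139 and at 87 to 83 bases before the start and no GC box, whereas that of Slc25a5 held 3 GC boxes, at 238 to 233, 101 to 96 and 37 to 32 bases, and no CCAAT box. In the promoter of Slc25a25 the full cyclic AMP response element stood 158 to 151 bases before the start, followed by a CCAAT box, an NRF1 core and a GC box, and that of Slc25a23 held a single CCAAT box. The matches describe letters in these windows, and no binding was measured.

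Against normal liver members were called in both directions in each of the other groups, with more of them lower than higher. Differences are log2 differences between geometric mean intensities, given ± the standard error of the limma fit, and a gene was called at a Benjamini-Hochberg adjusted p under 0.05 over all genes. In AAF/PH liver 3 members were called higher and 8 lower, 29.7% of the 37 where 20.0% of all genes were called (7.54% higher and 12.5% lower). In placebo foci 2 were higher and 5 lower, 18.9% of the members where 8.22% of all genes were called (2.84% higher and 5.38% lower). In rapamycin foci 1 was higher and 2 were lower, 8.11% of the members where 6.53% of all genes were called (1.60% higher and 4.93% lower). The 3 comparisons share the normal animals. Of the 24 members above the median gene 41.7% were called in AAF/PH liver, where 30.9% of all genes above it were.

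The median difference of the 37 members from normal liver was -0.08 in AAF/PH liver, -0.18 in placebo foci and -0.33 in rapamycin foci. Over all genes it was 0.12, 0.04 and 0.07. For the 24 brighter members the medians were -0.62, -0.42 and -0.52, where all genes above the median gene had -0.21, -0.15 and -0.26. The 13 dimmer members had medians of 0.23, 0.13 and 0.23. The medians of rapamycin foci include rapamycin animal 3 and depend on it. Without that animal the difference from normal liver was -0.12 instead of -0.61 for Slc25a5 and -0.30 instead of -0.78 for Slc25a10. For the dim member Slc25a2 it was 0.05 instead of 0.31. The highest group mean was that of normal liver for 17 members, of AAF/PH liver for 7, of placebo foci for 8 and of rapamycin foci for 5. Of the 37 members 16 were called in at least 1 of the 6 comparisons made and 21 in none. That is 43.2% of the members, where 22.9% of all genes were called in at least 1, and 58.3% of the 24 brighter members against 35.0% of all genes above the median gene. Only Slc25a4, Slc25a30 and Slc25a38 were called against normal liver in all 3 other groups.

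Without rapamycin animal 3 no member lost a call and further ones passed, while the share of all genes called rose from 20.0% to 35.9% in AAF/PH liver and from 8.22% to 17% in placebo foci and stood at 6.68% in rapamycin foci. In AAF/PH liver 8 members were added against normal liver: Slc25a5 (adjusted p = 0.0016), Slc25a10 (0.0021), Slc25a15 (0.0036), Slc25a39 (0.0044), Slc25a11 (0.012), Slc25a17 (0.014), Slc25a29 (0.021) and Slc25a42 (0.038), by limma. In placebo foci 5 were added, Slc25a16 (0.0025), Slc25a23 (0.0053), Slc25a15 (0.028), Slc25a32 (0.037) and Slc25a21 (0.044). In rapamycin foci 1 was added, Slc25a24 at 1.26 (adjusted p = 0.017). The log2 differences of AAF/PH liver and placebo foci from normal liver are the same with and without that animal, and only the estimate of the spread differs. Statements that a difference was not called refer to the fit with all 12 animals.

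**Figure D1:**
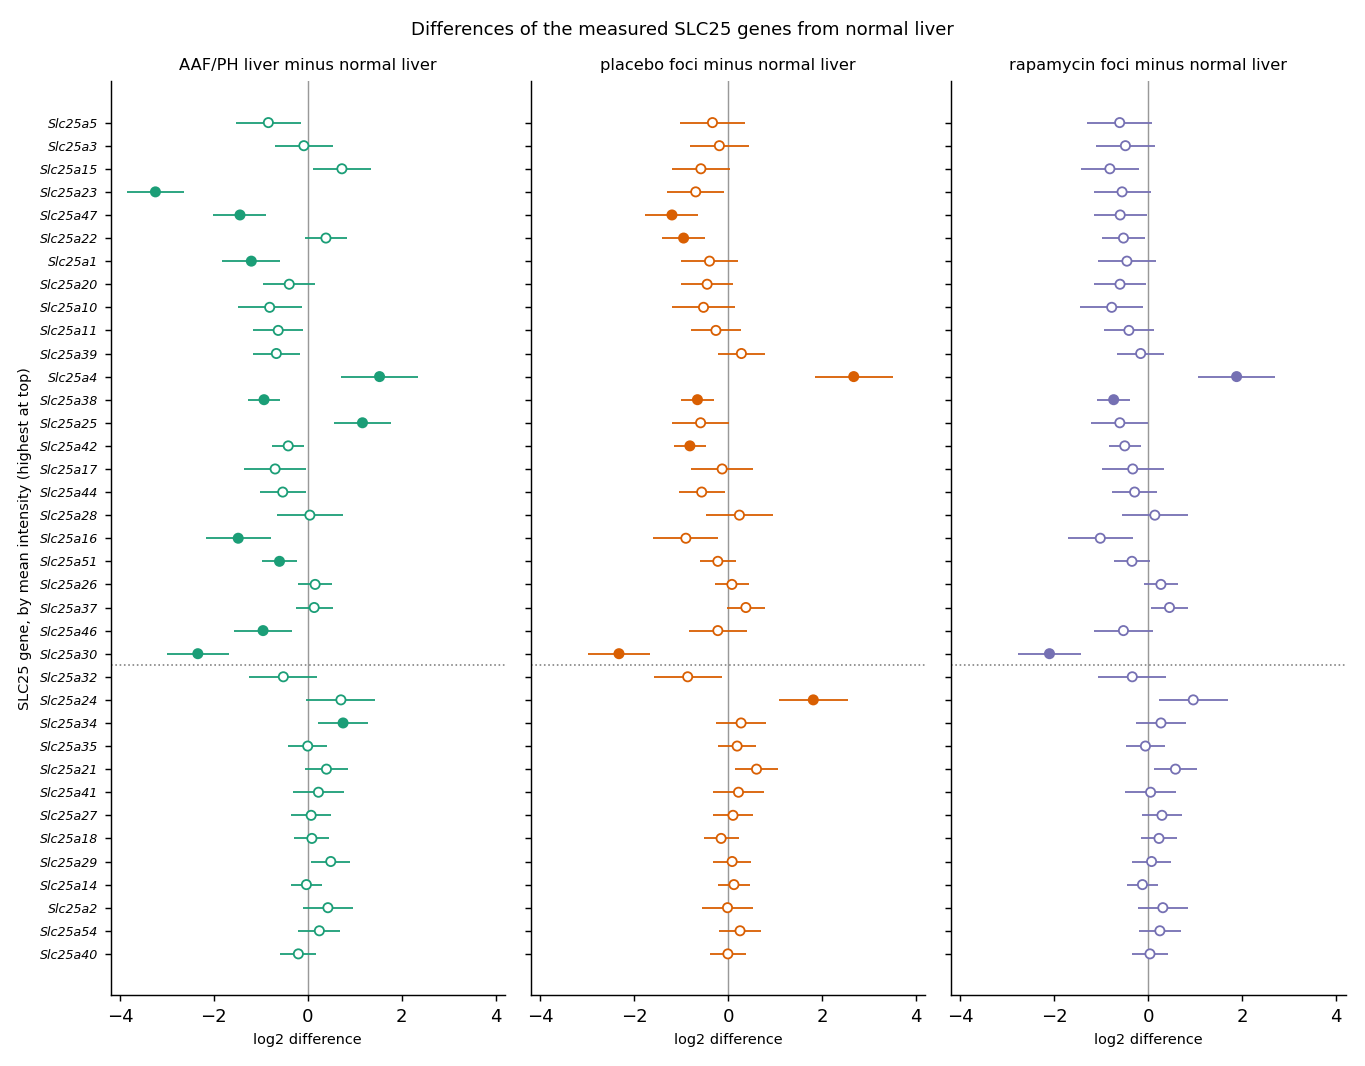
Log2 difference of each of the 37 SLC25 genes from normal liver in AAF/PH liver, placebo foci and rapamycin foci, ordered by mean intensity with the highest at the top. Points are differences of group means of 3 animals, bars are 95% confidence intervals of the limma fit, filled points are called at an adjusted p under 0.05, and the dotted line separates members above and below the median gene. Slc25a4 lies to the right and Slc25a30 to the left in all 3 panels, while Slc25a23 lies far to the left in AAF/PH liver alone, at -3.24.

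The adenine nucleotide carriers exchange cytosolic ADP for ATP made in the matrix, and Slc25a3 brings in the phosphate. Slc25a4 was low in normal liver and rose in all 3 other groups, 2.89-fold in AAF/PH liver, 6.40-fold in placebo foci and 3.68-fold in rapamycin foci. Slc25a5 was not called in any comparison, and its means were below normal liver in each of the other groups.

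Slc25a4 read 40.3, 38.4 and 45.4 in the normal animals. It read 89.8, 120.3 and 156 in AAF/PH liver. It read 259.9, 202 and 350.2 in placebo foci and 176, 285 and 70.0 in rapamycin foci. Every animal of the other groups lay above every normal animal, and placebo foci lay above AAF/PH liver, whereas rapamycin foci overlapped both, with animal 3 the lowest. The difference from normal liver was 1.53 ± 0.39 in AAF/PH liver (adjusted p = 0.0122), 2.68 ± 0.39 in placebo foci (adjusted p = 5.5e-04) and 1.88 ± 0.39 in rapamycin foci (adjusted p = 0.0114), by limma. Placebo foci differed from AAF/PH liver by 1.15 ± 0.39, which missed the threshold (adjusted p = 0.13, limma), and so in the order normal liver, AAF/PH liver, rapamycin foci and placebo foci only the first step was called with all animals. Without rapamycin animal 3 both foci groups were called above AAF/PH liver (1.15, adjusted p = 0.0022, for placebo and 0.91, adjusted p = 0.023, for rapamycin), and the placebo difference also passed with array weights, with the 2 groups alone and without rapamycin animal 2 (adjusted p = 0.0015 to 0.045). The call in placebo foci held in all 24 alternative settings. That in AAF/PH liver was lost with each array centred on its median (1.34, adjusted p = 0.056) and without AAF/PH animal 3 (1.33, adjusted p = 0.055), and that in rapamycin foci without normal animal 1 (1.86, adjusted p = 0.061) or with only those 2 groups in the fit (adjusted p = 0.075). Without rapamycin animal 3 the rapamycin difference was 2.44 (adjusted p = 7.0e-06, limma).

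Slc25a5 read 779, 605 and 777 in normal liver. It read 452, 326 and 434 in AAF/PH liver, 522, 498 and 707 in placebo foci, and 636, 684 and 237 in rapamycin foci. The AAF/PH animals lay below all normal animals, at a difference of -0.84 ± 0.32 that missed the threshold (adjusted p = 0.081, limma), and both foci groups overlapped normal liver. The AAF/PH difference was called without rapamycin animal 3, with the 2 groups alone and with array weights (adjusted p = 1.5e-04 to 0.0020). Over all 24 settings it ran from -1.03 to -0.37. The differences of the foci were -0.33 in placebo and -0.61 in rapamycin, the latter -0.12 without animal 3. Within an animal, the log2 ratio of Slc25a4 to Slc25a5, set to a mean of 0 in normal liver, ran from 1.78 to 2.68 in AAF/PH liver, 2.81 to 3.11 in placebo foci and 2.26 to 2.85 in rapamycin foci, against -0.16 to 0.14 in normal animals. No animal of those groups overlapped the normal animals, and rapamycin animal 3 no longer stood apart by this measure as it did for each gene. An exact 2-sided permutation test gave p = 0.1 for each group against normal liver, the smallest that 3 against 3 animals allow. The ratio compares shifts of probe sets and does not show which isoform was more abundant.

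Slc25a3 read 459, 342 and 522 in normal liver, 466, 322 and 460.4 in AAF/PH liver, 369, 358 and 423 in placebo foci, and 385, 437 and 178 in rapamycin foci. The groups overlapped except for the low rapamycin animal, and no difference was called. Since Slc25a4 is the isoform of muscle, 6 striated muscle markers were read beside it: their summed intensity was 121.9 to 137.9 in normal liver, 168.2 to 188.2 in AAF/PH liver, 129.1 to 178.4 in placebo foci and 141.3 to 229.5 in rapamycin foci. Of these 6, 1 was called higher in AAF/PH liver (16.7%, where 20.0% of all genes were called) and none in the foci (where 8.22% and 6.53% were). Of the 6 muscle markers 4 stood below the median gene. Their part in the Slc25a4 result, and that of the biliary and oval cell markers, was not tested.

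**Figure D2:**
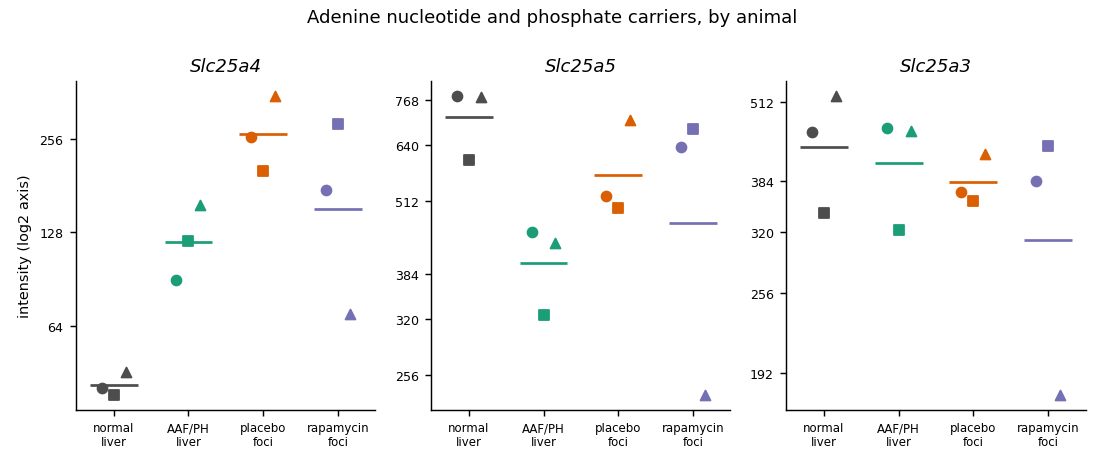
Intensity (log2 axis) of the nucleotide carriers Slc25a4 and Slc25a5 and the phosphate carrier Slc25a3 in each animal of the 4 groups. Circles, squares and triangles are animals 1, 2 and 3 and bars are geometric means. Slc25a4 lies at 38.4 to 45.4 in normal liver and at 70.0 to 350.2 elsewhere, whereas Slc25a5 and Slc25a3 have their highest means in normal liver.

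The ATP-Mg/phosphate carriers exchange ATP bound to magnesium for phosphate and set the size of the matrix pool of adenine nucleotides, most of them in response to calcium. Their members went opposite ways in AAF/PH liver: Slc25a23 fell 9.48-fold and Slc25a25 rose 2.24-fold, and neither was called in the foci against normal liver. Slc25a24 rose in placebo foci 3.52-fold, and Slc25a41 was called in no comparison.

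Slc25a23 read 653, 688 and 589 in normal liver and 72.7, 63.2 and 67.7 in AAF/PH liver. It read 392, 335 and 482 in placebo foci and 581, 595 and 239.8 in rapamycin foci. The 3 AAF/PH animals lay together far below all others, and placebo foci lay between them and normal liver. The AAF/PH difference was -3.24 ± 0.28 (adjusted p = 3.2e-06, limma), held in all 24 settings, and was the largest in size of any member in any comparison. Placebo foci stood above AAF/PH liver by 2.56 ± 0.28 (adjusted p = 9.8e-05) and rapamycin foci by 2.69 ± 0.28 (adjusted p = 7.8e-05), while placebo foci differed from normal liver by -0.69, which was not called. A further probe set of Slc25a23 followed the same course over the 12 animals (r = 0.989, given as a description).

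Slc25a25 read 112, 81.8 and 123 in normal liver, 196, 330.2 and 196 in AAF/PH liver, 81.1, 80.9 and 50.9 in placebo foci, and 92.7, 71.0 and 48.5 in rapamycin foci. The AAF/PH animals were above every other animal and the foci overlapped normal liver or lay below it. The AAF/PH difference was 1.17 ± 0.28 (adjusted p = 0.0098, limma), and it was lost without AAF/PH animal 2 (0.91, adjusted p = 0.060). Against AAF/PH liver the placebo foci were lower by a difference of -1.75 ± 0.28 (adjusted p = 0.0021) and the rapamycin foci by -1.77 ± 0.28 (adjusted p = 0.0019). Within an animal the log2 ratio of Slc25a25 to Slc25a23 was shifted by 4.41 from normal liver in AAF/PH liver (4.06 to 5.01 against -0.45 to 0.37, exact permutation p = 0.1, the smallest possible), by 0.10 in placebo foci and by -0.05 in rapamycin foci. The ratio of Slc25a24 to Slc25a23 was shifted in all 3 groups, by 3.95 in AAF/PH liver, 2.50 in placebo foci and 1.52 in rapamycin foci, with no overlap with normal animals.

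Slc25a24 read 11.9, 9.96 and 18.6 in normal liver, 18.2, 24.7 and 21.3 in AAF/PH liver, 40.3, 30.8 and 77.3 in placebo foci, and 27.1, 35.9 and 16.6 in rapamycin foci. Placebo foci lay above all normal and AAF/PH animals, at 1.82 ± 0.34 over normal liver (adjusted p = 0.0039, limma, called in every setting). The gene's other probe set, of mean intensity 13.9, gave 0.89 in placebo foci and 0.88 in AAF/PH liver (adjusted p = 0.040 and 0.024, limma over all probe sets). Placebo foci minus AAF/PH liver was 0.01 with it and 1.11 with the set used, so that step depends on the probe set. Rapamycin foci overlapped normal liver through animal 3 and differed by 0.96 ± 0.34 (adjusted p = 0.10). Slc25a41 read 12.8 to 24.9 over the 12 animals with all groups overlapping.

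**Figure D3:**
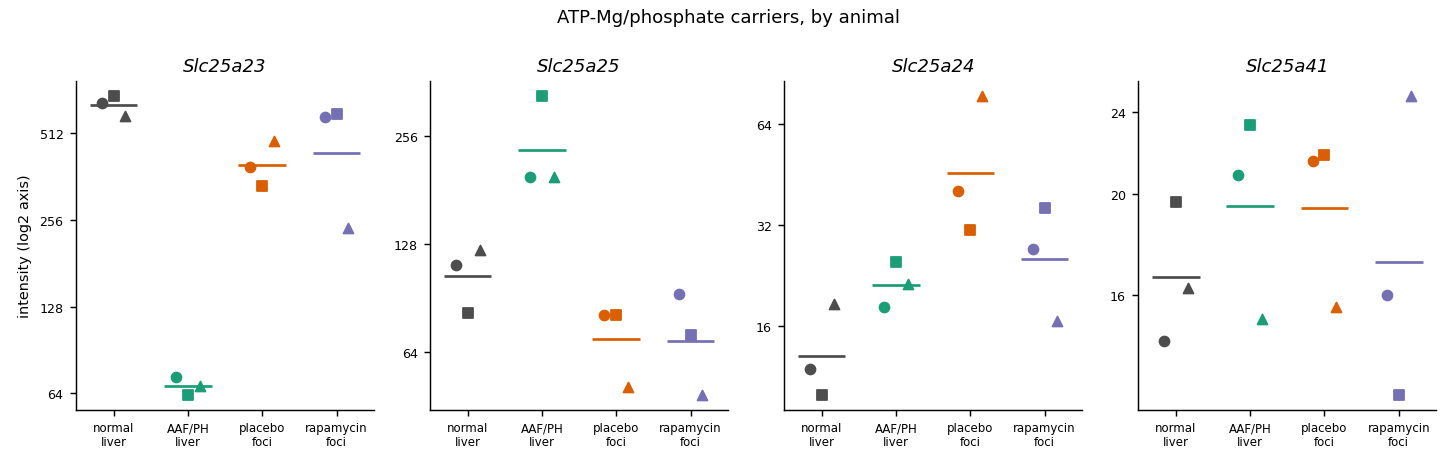
Intensity (log2 axis) of the ATP-Mg/phosphate carriers Slc25a23, Slc25a25, Slc25a24 and Slc25a41 in each animal. Circles, squares and triangles are animals 1, 2 and 3 and bars are geometric means. The AAF/PH animals lie at 63.2 to 72.7 for Slc25a23, below all others, and at 196 to 330.2 for Slc25a25, above all others.

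Amino acid carriers feed the urea cycle and glutamate metabolism, and 7 were measured. Slc25a15, which exchanges ornithine and citrulline for the urea cycle, and Slc25a22, a glutamate carrier, stood highest in AAF/PH liver and were lower in both kinds of foci than there. Slc25a38, which carries glycine for haem synthesis, fell in all 3 groups against normal liver. The other 4, Slc25a2, Slc25a18, Slc25a29 and Slc25a44, were called in no comparison.

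Slc25a15 read 381, 301 and 420.1 in normal liver, 617, 676 and 524 in AAF/PH liver, 270.0, 232 and 232 in placebo foci, and 238, 319 and 116 in rapamycin foci. AAF/PH animals lay above and placebo foci below all normal animals, yet neither difference from normal liver was called (0.73 ± 0.29, adjusted p = 0.088, and -0.58 ± 0.29, adjusted p = 0.28, limma). The former was called in 5 of 24 settings (0.59 to 1.18, adjusted p = 8.1e-04 to 0.044) and the latter in 3 (adjusted p = 0.0011 to 0.035), in both cases also without rapamycin animal 3. Over all 24 settings the AAF/PH difference ran from 0.535 to 1.184 and the placebo difference from -0.715 to -0.336. Between them the difference was called, at -1.31 ± 0.29 for placebo foci minus AAF/PH liver (adjusted p = 0.018) and -1.55 ± 0.29 for rapamycin foci minus AAF/PH liver (adjusted p = 0.0056). The placebo call was lost with median centring (adjusted p = 0.078) and when any animal of either group but AAF/PH animal 3 was left out (adjusted p = 0.051 to 0.088). The rapamycin call was lost with only those 2 groups in the fit (adjusted p = 0.069) and was -1.13 without rapamycin animal 3 (adjusted p = 5.2e-04).

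Slc25a22 read 282, 256 and 304 in normal liver, 394, 332 and 377 in AAF/PH liver, 142, 133 and 162 in placebo foci, and 229.9, 238 and 134 in rapamycin foci. The groups normal liver, AAF/PH liver and placebo foci did not overlap, with AAF/PH highest and placebo foci lowest. Placebo foci fell by 0.95 ± 0.21 on the log2 scale against normal liver (adjusted p = 0.011, limma), a call lost without normal animal 1 or 3 or placebo animal 1 or 2 (adjusted p = 0.051 to 0.062). Against AAF/PH liver they differed by -1.33 ± 0.21 (adjusted p = 0.0018), and rapamycin foci by -0.92 ± 0.21 (adjusted p = 0.023). The last call was lost with median centring, an intensity trend, the 2 groups alone, the replicate block and without any 1 of the AAF/PH animals (adjusted p = 0.052 to 0.17), and stood at -0.65 without rapamycin animal 3 (adjusted p = 0.014).

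Slc25a38 read 172, 146 and 176 in normal liver, 87.6, 81.0 and 89.9 in AAF/PH liver, 96.8, 106 and 111 in placebo foci, and 107, 103 and 86.8 in rapamycin foci. All 9 animals of the 3 groups lay below the 3 normal animals. The differences from normal liver were -0.93 ± 0.16 in AAF/PH liver (adjusted p = 9.9e-04, called in every setting), -0.65 ± 0.16 in placebo foci (adjusted p = 0.020) and -0.74 ± 0.16 in rapamycin foci (adjusted p = 0.015), by limma. The call in placebo foci was lost with quantile normalization, an intensity trend, the replicate block, or without normal animal 1 or 3 or placebo animal 1 or 2 (adjusted p = 0.053 to 0.11). That in rapamycin foci was lost with quantile normalization, the 2 groups alone, or without normal animal 1 or 3 (adjusted p = 0.085 to 0.11). The haemoglobin gene Hbb was also lower outside normal liver, and it makes up most of the summed intensity of 6 erythroid markers. The sum was 561.2 to 1187 in normal liver, 392.3 to 420.4 in AAF/PH liver, 379.6 to 406.9 in placebo foci and 387.1 to 444.7 in rapamycin foci. Of the 6, 3 differed upward and 3 downward in AAF/PH liver, 2 and 4 in placebo foci and 3 and 3 in rapamycin foci. Called lower were 2, 1 and 1 (33.3%, 16.7% and 16.7%, where 20.0%, 8.22% and 6.53% of all genes were called), and none was called higher. The part of these markers in the Slc25a38 result was not tested.

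The carriers of carboxylic acids and acylcarnitines supply fat synthesis, gluconeogenesis and fat oxidation. Of the 4 carboxylic acid carriers only Slc25a1, which exports the citrate used for fatty acid synthesis, was called, and it fell 2.30-fold in AAF/PH liver. Its values were 312, 236 and 298 in normal liver, 159, 82.4 and 138 in AAF/PH liver, 232, 204 and 204 in placebo foci, and 275, 246 and 126 in rapamycin foci. The AAF/PH animals lay below the normal and placebo animals, at -1.20 ± 0.29 from normal liver (adjusted p = 0.0090, limma). This value depends on the probe set: the gene's other probe set, of mean intensity 35.7 against 196, gave 0.08 (adjusted p = 0.79), and the pair correlated at -0.17 over the 12 animals. It was also lost without AAF/PH animal 2 (-0.92, adjusted p = 0.055).

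Slc25a10, the dicarboxylate carrier used in gluconeogenesis, read 318, 222 and 295 in normal liver, 201, 128 and 150.4 in AAF/PH liver, 192, 184 and 199 in placebo foci, and 229, 217 and 83.0 in rapamycin foci. The AAF/PH and placebo animals lay below all normal animals, with differences of -0.81 ± 0.32 (adjusted p = 0.085, limma) and -0.52 ± 0.32 (adjusted p = 0.39) that were not called. The AAF/PH difference passed without rapamycin animal 3, with the 2 groups alone and with array weights (adjusted p = 4.2e-04 to 0.0049), and the placebo difference with array weights (adjusted p = 0.0034). Slc25a11, the oxoglutarate carrier of the malate-aspartate shuttle, differed in AAF/PH liver by -0.63 ± 0.25 (adjusted p = 0.085). Slc25a20, the carnitine-acylcarnitine carrier that admits fatty acids to oxidation, read 259, 223 and 272 in normal liver, 227, 143 and 214 in AAF/PH liver, 173, 164 and 219.8 in placebo foci, and 188, 223 and 108 in rapamycin foci. Placebo and rapamycin animals all lay under the normal ones, if barely, with differences of -0.45 ± 0.26 (adjusted p = 0.37, limma) and -0.60 ± 0.26 (adjusted p = 0.16), and no difference was called. Slc25a21, a carrier of oxoadipate among the dim members, read 13.8, 14.8 and 14.6 in normal liver, 19.3, 16.0 and 22.2 in AAF/PH liver, 19.1, 19.5 and 28.4 in placebo foci, and 17.7, 28.7 and 19.6 in rapamycin foci. Its animals lay above the normal ones in all 3 groups, at 0.40 ± 0.22, 0.61 ± 0.22 and 0.58 ± 0.22, which were not called (adjusted p = 0.21, 0.12 and 0.12).

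Among 6 cofactor and nucleotide carriers, the change of largest size was a 2.79-fold fall of Slc25a16, which is linked to coenzyme A transport. Slc25a16 read 118, 87.9 and 98.4 in normal liver, 42.6, 26.7 and 41.1 in AAF/PH liver, 49.6, 53.4 and 59.4 in placebo foci, and 60.9, 78.2 and 25.5 in rapamycin foci. All other animals lay below the normal ones, but only the AAF/PH difference was called, at -1.48 ± 0.33 (adjusted p = 0.0052, limma, called in every setting). The foci differed by -0.90 ± 0.33 (adjusted p = 0.12) and -1.02 ± 0.33 (adjusted p = 0.074).

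Slc25a42, a carrier of coenzyme A, read 112, 93.9 and 103 in normal liver, 76.8, 76.0 and 78.7 in AAF/PH liver, 61.1, 55.9 and 59.0 in placebo foci, and 83.4, 67.4 and 68.4 in rapamycin foci. The placebo foci were the lowest group and overlapped no other. Their difference from normal liver was -0.81 ± 0.16 (adjusted p = 0.0046, limma, called in every setting), against -0.42 ± 0.16 in AAF/PH liver (adjusted p = 0.076) and -0.50 ± 0.16 in rapamycin foci (adjusted p = 0.071). That in AAF/PH liver passed in 4 settings (median centring, array weights, the 2 groups alone and without rapamycin animal 3, adjusted p = 0.0029 to 0.049) and that in rapamycin foci in 2 (median centring and array weights, adjusted p = 0.030 and 0.022). Over all 24 settings the former ran from -0.61 to -0.13 and the latter from -0.672 to -0.245. Slc25a51, the carrier of NAD, read 58.8, 43.1 and 48.2 in normal liver and 30.5, 31.1 and 36.8 in AAF/PH liver. The fall, -0.60 ± 0.18 (adjusted p = 0.028), was lost with its other probe set (-0.30, adjusted p = 0.23), with the replicate block (adjusted p = 0.054) and without normal animal 1 or 3 or AAF/PH animal 1 or 2 (adjusted p = 0.074 to 0.15). Slc25a17, Slc25a26 and Slc25a32 were called in no comparison.

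Slc25a47, an orphan carrier known for expression confined largely to liver, fell 2.72-fold in AAF/PH liver and 2.29-fold in placebo foci. It read 498, 378 and 563 in normal liver, 164, 169 and 191 in AAF/PH liver, 227, 217 and 180.4 in placebo foci, and 348, 457 and 193 in rapamycin foci. The AAF/PH and placebo animals all lay below the normal ones, while rapamycin animal 2 lay within the normal range. The differences were -1.44 ± 0.26 (adjusted p = 0.0014, limma, called in every setting), -1.19 ± 0.26 (adjusted p = 0.010) and -0.60 ± 0.26 (adjusted p = 0.17), and the placebo call was lost without normal animal 1 or 3 (adjusted p = 0.054 and 0.064). Beside this, 6 of 10 hepatocyte markers were called lower in AAF/PH liver, 4 in placebo foci and 2 in rapamycin foci (60%, 40% and 20%, where 20.0%, 8.22% and 6.53% of all genes were called). The part of hepatocyte content in these falls was not tested.

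**Figure D4:**
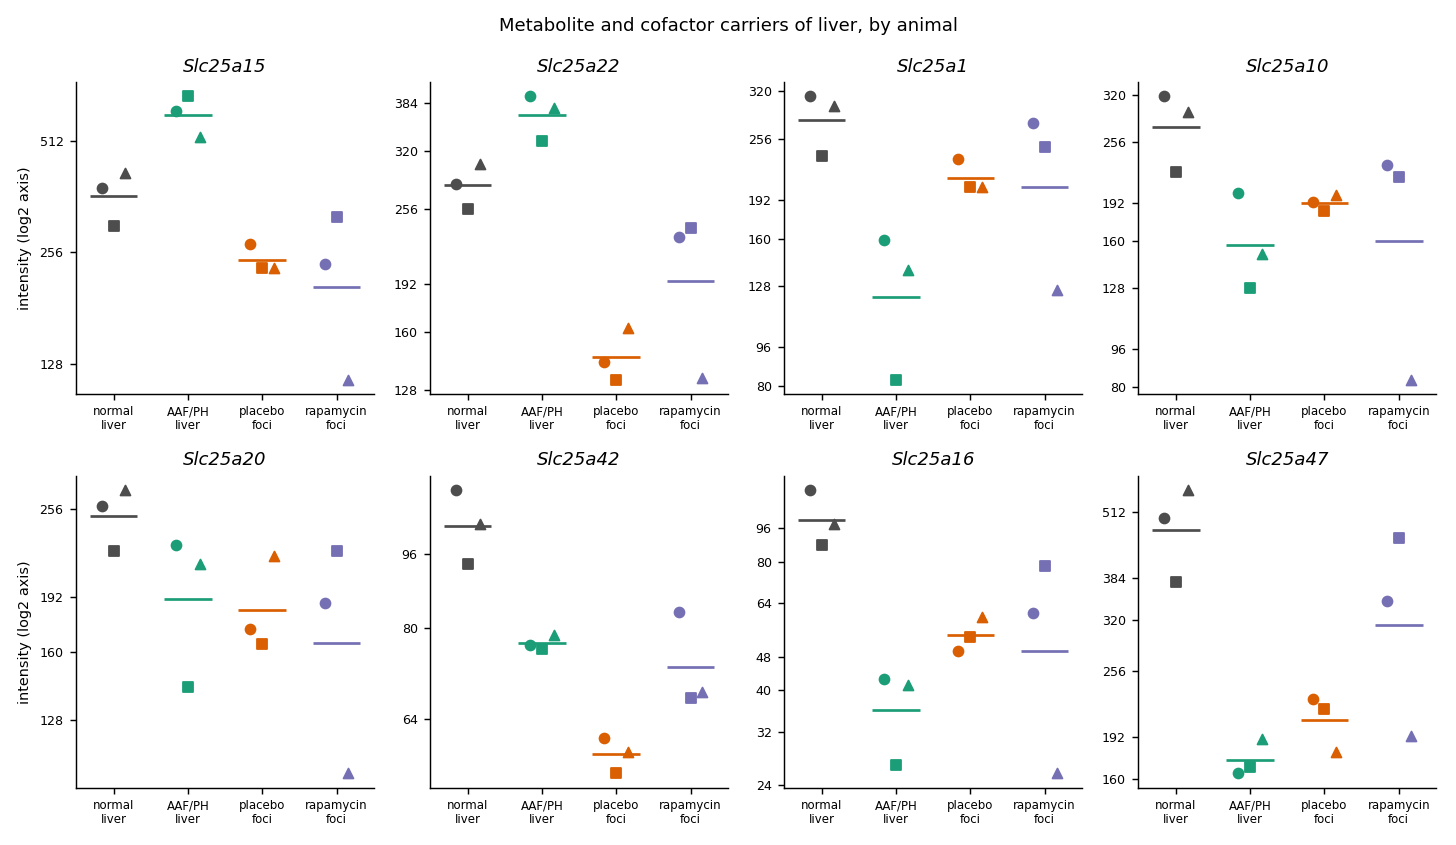
Intensity (log2 axis, a scale of its own in each panel) of 8 carriers of metabolites and cofactors in each animal. Circles, squares and triangles are animals 1, 2 and 3 and bars are geometric means. Slc25a15 and Slc25a22 are highest in AAF/PH liver, Slc25a47 and Slc25a16 are highest in normal liver, and rapamycin animal 3 (triangle) is the lowest of its group in 7 of the 8 panels, Slc25a42 being the exception.

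Slc25a30, a member related to the uncoupling proteins, fell by a similar amount in all 3 groups, 5.07-fold in AAF/PH liver, 5.00-fold in placebo foci and 4.30-fold in rapamycin foci. It read 74.1, 159 and 105 in normal liver, 26.2, 15.2 and 23.9 in AAF/PH liver, 14.7, 29.2 and 23.1 in placebo foci, and 30.4, 20.3 and 25.4 in rapamycin foci. The 3 groups overlapped each other and lay below every normal animal. Differences from normal liver were -2.34 ± 0.31 (adjusted p = 1.1e-04), -2.32 ± 0.31 (adjusted p = 3.0e-04) and -2.10 ± 0.31 (adjusted p = 0.0016), by limma, and were called in every setting. The rapamycin difference was -2.11 without animal 3, so this result does not rest on that animal. The other members of this kind, Slc25a14 and Slc25a27, were among the dim genes, at 11.9 to 16.5 and 11.1 to 21.1, and were not called.

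Of 4 carriers linked to iron and glutathione, Slc25a39, which is needed for glutathione uptake, read 162, 159 and 169 in normal liver, 98.1, 92.9 and 119 in AAF/PH liver, 179.8, 179.4 and 244 in placebo foci, and 168, 194 and 95.8 in rapamycin foci. Placebo foci lay above normal liver and AAF/PH liver below it. The difference of placebo foci from AAF/PH liver, 0.95 ± 0.24 (adjusted p = 0.034, limma), was lost in 14 of 24 settings, up to an adjusted p of 0.15, among them leaving out any 1 animal of the normal, AAF/PH or placebo groups. The iron carriers Slc25a28 and Slc25a37 and the glutathione-linked Slc25a40 were called in no comparison.

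The remaining members called were Slc25a46, a protein of the outer membrane that acts in mitochondrial shape, and Slc25a34, an orphan. Slc25a46 read 52.1, 42.1 and 47.4 in normal liver and 30.8, 15.6 and 29.9 in AAF/PH liver, a fall of 0.95 ± 0.29 on the log2 scale (adjusted p = 0.033, limma) that was lost in 6 of 24 settings and stood at -0.63 without AAF/PH animal 2 (adjusted p = 0.17). Slc25a34 read 14.8, 18.0 and 23.2 in normal liver and 31.0, 34.4 and 27.5 in AAF/PH liver. The groups did not overlap, but the difference of 0.75 ± 0.25 (adjusted p = 0.0495) was lost in 14 of 23 settings, including the exclusion of any 1 normal or AAF/PH animal other than normal animal 3. Slc25a35 and Slc25a54 were dim and were not called.

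Against placebo foci, no member was called in rapamycin foci, in either direction, by limma (0.00% of all genes called, 0.00% higher and 0.00% lower), and none in any of the 24 alternative settings. At an unadjusted p under 0.05 there were 3 members of 37 and 483 of all genes. The 3 were Slc25a24 at -0.86 ± 0.34, Slc25a47 at 0.60 ± 0.26 and Slc25a18 at 0.38 ± 0.18, each with an adjusted p of 0.99. For 33 of the 37 members the 95% interval of the difference lay within 2-fold either way. The 4 wider ones were Slc25a4 (-1.62 to 0.03), Slc25a24 (-1.59 to -0.13), Slc25a32 (-0.21 to 1.24) and Slc25a47 (0.03 to 1.16), so that a difference of more than 2-fold was within the interval for these. The intervals use 1 estimate of the spread shared by the 4 groups. The median within-group SD of the members was 0.49 on the log2 scale in rapamycin foci, against 0.19, 0.20 and 0.22 in normal liver, AAF/PH liver and placebo foci. They can therefore be too narrow for this comparison, and do not show that the 33 members were alike in both kinds of foci. Without rapamycin animal 3, Slc25a4 differed from placebo foci by -0.24 instead of -0.80, and Slc25a47 by 0.95 (adjusted p = 0.097).

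Foci were also compared with AAF/PH liver, since both had received AAF and hepatectomy. In placebo foci 2 members were higher and 3 lower than in AAF/PH liver, where 4.19% of all genes were called (2.62% higher and 1.57% lower). In rapamycin foci 1 was higher and 3 were lower, where 4.01% were called (2.14% higher and 1.87% lower). Slc25a23 was higher and Slc25a15, Slc25a22 and Slc25a25 were lower in both. With all 12 animals Slc25a39 was called higher in placebo foci only, and the difference between the foci was not called (-0.45). Without rapamycin animal 3 Slc25a39 was also called higher in rapamycin foci (0.81, adjusted p = 0.0052, limma). The 2 comparisons share the AAF/PH animals. Without rapamycin animal 3 the rapamycin count rose from 4 to 13 and the placebo count from 5 to 9, while the share of all genes called rose from 4.01% to 14.2% and from 4.19% to 12%. Added in placebo foci were Slc25a1, Slc25a4, Slc25a24 and Slc25a46, all higher. In rapamycin foci Slc25a1, Slc25a4, Slc25a5, Slc25a16, Slc25a17, Slc25a39 and Slc25a47 were added as higher, and Slc25a29 and Slc25a34 as lower.

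Transporters and channels of both mitochondrial membranes from other families were read beside the carriers. Of 16 measured, 1 was called higher and 4 lower in AAF/PH liver, 3 lower in placebo foci and 3 lower in rapamycin foci. That is 31.2%, 18.8% and 18.8% of the list, where 20.0%, 8.22% and 6.53% of all genes were called. Of genes above the median gene 30.9%, 13.6% and 11% were called. Mpc1 and Mpc2, which together form the pyruvate carrier, were lower in all 3 groups. Mpc1 read 316, 225 and 287 in normal liver, 92.0, 88.0 and 95.6 in AAF/PH liver, 76.5, 97.5 and 97.5 in placebo foci, and 124, 137 and 42.0 in rapamycin foci. Its differences were -1.58 ± 0.34, -1.61 ± 0.34 and -1.61 ± 0.34 (adjusted p = 0.0043, 0.0075 and 0.012, limma). Those of Mpc2 were -1.42 ± 0.24, -1.28 ± 0.24 and -1.31 ± 0.24 (adjusted p = 7.4e-04, 0.0034 and 0.0059). Sfxn5, a sideroflexin, fell in the same 3 groups by 1.96, 1.20 and 0.97 on the log2 scale. The medians of this list were -0.47, -0.09 and -0.38. Over all genes they were 0.12, 0.04 and 0.07, and over genes above the median gene -0.21, -0.15 and -0.26.

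**Figure D5:**
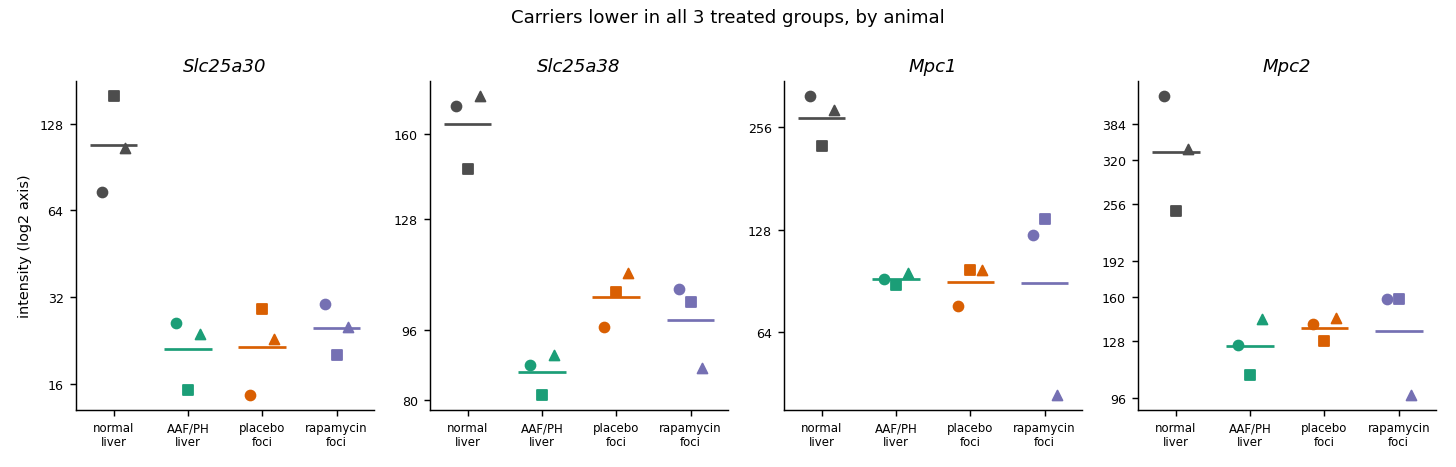
Intensity (log2 axis) of Slc25a30, Slc25a38 and the pyruvate carrier subunits Mpc1 and Mpc2 in each animal. Circles, squares and triangles are animals 1, 2 and 3 and bars are geometric means. In each panel all animals of the AAF/PH, placebo and rapamycin groups lie below the 3 normal animals.

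Enzymes that use what the carriers bring were read too. Of 17 measured, 1 rose and 7 fell in AAF/PH liver, 6 fell in placebo foci and 3 fell in rapamycin foci, with medians of -0.88, -0.77 and -0.81. That is 47.1%, 35.3% and 17.6% of the list, where 20.0%, 8.22% and 6.53% of all genes were called. The medians over all genes were 0.12, 0.04 and 0.07, and over genes above the median gene -0.21, -0.15 and -0.26. Otc, which joins the ornithine brought in by Slc25a15 to carbamoyl phosphate, read 616, 445 and 464 in normal liver and 19.0, 21.2 and 11.9 in AAF/PH liver. The difference was -4.90 ± 0.42 (adjusted p = 2.7e-06, limma), in the group where the Slc25a15 animals lay above all others. Asl, a later enzyme of the urea cycle, was higher in AAF/PH liver (0.86 ± 0.27, adjusted p = 0.039) and lower in placebo foci (-0.96 ± 0.27, adjusted p = 0.041) and rapamycin foci (-1.03 ± 0.27, adjusted p = 0.037). Oat and Nags, which turn over ornithine and make the activator of the cycle's first step, fell in all 3 groups, with differences of -1.66, -2.99 and -2.27 for Oat and -1.47, -1.61 and -1.35 for Nags. Acly, which cleaves the citrate exported by Slc25a1, fell by 2.53 ± 0.41 in AAF/PH liver (adjusted p = 5.4e-04). Got2 and Mdh1 of the malate-aspartate shuttle fell there by 1.16 and 1.19. Got1 of the same shuttle went the other way without being called. It read 405.8, 588.9 and 299.1 in AAF/PH liver and 278.7, 170 and 276.1 in normal liver, without overlap.

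The proteins that lead carriers into the inner membrane were also read. Of 12 measured, none was called higher and 3 lower in AAF/PH liver, Timm10b at -1.15, Timm9 at -1.06 and Timm10 at -0.65, all small chaperones of the space between the membranes. None was called in either kind of foci by limma. That is 25%, 0% and 0% of the list, where 20.0%, 8.22% and 6.53% of all genes were called. The medians of the list were -0.40 in AAF/PH liver, -0.26 in placebo foci and -0.49 in rapamycin foci. Over all genes they were 0.12, 0.04 and 0.07, and over genes above the median gene -0.21, -0.15 and -0.26.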

How the data were processed

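The deposited data are intensity values on a linear scale for 28826 probe sets on 14 arrays; the submitters' processing notes name Partek 6.6 and RMA without settings. The authors' intensity values were taken to log2 here with no pseudocount (log2 values had been assumed when the design was written), and rapamycin animal 3 entered as the log2 mean of its 3 arrays. Arrays have no sequencing depth, and precision is limited by how many there are. Gene names come from the platform annotation, in which 15209 probe sets have 1 symbol, and the promoters from RefSeq GRCr8. Tests used R 4.3.3 and limma 3.58.1 (lmFit and eBayes, 2-sided), in 1 fit of 4 group means over 12 animals (8 residual and 6.38 prior degrees of freedom), 6 contrasts and Benjamini-Hochberg adjustment over 14497 genes. Promoters and figures were handled in Python 3.11.15 with pandas 2.3.3, and the R package data.table (version 1.17.8) read the files. The calculation was tested on simulated data.

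Animals are the replicates, as the labels number them. Members were set by symbol alone, and the lists were chosen with earlier results of these data known. Named members are Slc25a4 and Slc25a5, carriers known for liver roles (Slc25a1, Slc25a10, Slc25a13, Slc25a15, Slc25a20, Slc25a25, Slc25a42 and Slc25a47), and per contrast the called members whose animals do not overlap, up to the 10 largest in each direction; others are named to account for every member. Lists beside them are carrier homologues outside the rule, the import route, other mitochondrial transporters, enzymes served by carriers, mitochondrial content and biogenesis, and markers of hepatocytes, biliary and oval cells, stellate cells and matrix, macrophages, lymphocytes, endothelium, red cells and striated muscle; up to 4 genes of smallest p are named from each, apart from further genes of the same pathway step. Alternatives were other averages of the repeated arrays, median centring, quantile normalization, removal of dim genes, array weights, an intensity trend, only 2 groups in the fit, all probe sets, other probe sets, a replicate block, and each animal left out. The deviations of animals with the same number in different groups correlated at -0.681 to 0.381 over all genes. No pairing by number was established, and these correlations cannot exclude one.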

Additional observations from a re-analysis of the deposited data

Results flagged for a closer look

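The foci and AAF/PH liver differed from each other in 4 members whose differences from normal liver had opposite signs, by the limma test of the difference itself. In placebo foci minus AAF/PH liver, Slc25a25 differed by -1.75 (1.17 in AAF/PH liver and -0.58 in placebo foci against normal liver), Slc25a22 by -1.33 (0.39 and -0.95), Slc25a15 by -1.31 (0.73 and -0.58) and Slc25a39 by 0.95 (-0.67 and 0.29). In rapamycin foci minus AAF/PH liver, Slc25a25 differed by -1.77 (-0.61 in rapamycin foci against normal liver), Slc25a15 by -1.55 (-0.82) and Slc25a22 by -0.92 (-0.53). Of the differences from normal liver in these sets, those of Slc25a25 in AAF/PH liver and Slc25a22 in placebo foci passed the threshold.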

How the results depend on the processing

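Over the 30 called gene results and their alternative settings, 640 values kept their direction and their side of the threshold, 77 kept the direction but not the threshold, and 1 reversed: Slc25a1 in AAF/PH liver, at 0.084 with its other probe set instead of -1.20. Of the 42 uncalled gene results followed, 43 values passed the threshold under an alternative. The count of members called moved with array weights, a fit that stopped before it converged, to 24 in AAF/PH liver, 21 in placebo foci and 5 in rapamycin foci against normal liver (11, 7 and 3 as reported) and to 9 and 9 in placebo and rapamycin foci against AAF/PH liver (5 and 4). Of all genes 55.2%, 44.4%, 7.9%, 13.9% and 8.72% were then called. With only the 2 groups of a comparison in the fit these counts were 21, 12, 1, 8 and 2 (35.3%, 15.8%, 1.45%, 9.2% and 1.41% of all genes), and with median centring placebo foci against AAF/PH liver gave 3 (2.75%). Leaving out 1 animal, the count ran from 6 (without AAF/PH animal 2, 12.4% of all genes) to 19 (without rapamycin animal 3, 35.9%) in AAF/PH liver, from 4 (without normal animal 1 or 3, 4.18% and 4.75%) to 12 (without rapamycin animal 3, 17%) in placebo foci, and from 1 (without normal animal 1, 1.55%) to 6 (without rapamycin animal 2, 14.1%) in rapamycin foci against normal liver, and from 3 to 9 and from 3 to 13, the upper values without rapamycin animal 3, against AAF/PH liver. With the replicate block the counts were 8, 6, 3, 0, 4 and 3 (15.7%, 6.34%, 3.83%, 0%, 2.96% and 2.88% of all genes), though no pairing of the animals by number was established. Median centring shifted the median of all genes in AAF/PH liver from 0.12 to -0.08 and the members called there from 3 higher and 8 lower to 1 and 10 (18% of all genes called). Quantile normalization gave 4 and 8 (19.1%). Limits were 3 animals a group, 1 probe set for most members, and dim signal in the 13 members below the median gene.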

Other observations

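Relatives of the carriers that lack an Slc25a symbol were also measured. Of 5, Ucp2, an uncoupling protein, rose 3.73-fold in AAF/PH liver, from 83.6, 141 and 136 in normal liver to 413, 360.0 and 563 (difference 1.90 ± 0.33, adjusted p = 9.9e-04, limma). The AAF/PH animals lay above every other animal, and the foci read 228, 202 and 332 with placebo and 228, 229.5 and 95.6 with rapamycin. Mtch2, a carrier-like protein of the outer membrane, fell 3.35-fold there, from 271, 235 and 250.5 to 86.4, 62.9 and 78.5 (-1.74 ± 0.32, adjusted p = 0.0014). None of the 5 was called in the foci against normal liver, where 8.22% and 6.53% of all genes were called. The 2 called in AAF/PH liver are 40% of the 5, where 20.0% of all genes were called.

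Of 15 genes of mitochondrial content and biogenesis, 1 rose and 2 fell in AAF/PH liver, none was called in placebo foci, and 1 fell in rapamycin foci, by limma. That is 20%, 0% and 6.67% of the list, where 20.0%, 8.22% and 6.53% of all genes were called. Polg, the polymerase of mitochondrial DNA, fell by 1.26 ± 0.23 on the log2 scale in AAF/PH liver (adjusted p = 0.0014), Tfb2m, a factor of mitochondrial transcription, fell by 1.37 ± 0.25 (adjusted p = 0.0014), and Esrra, a nuclear receptor of mitochondrial genes, rose by 0.56 ± 0.17 (adjusted p = 0.033). Tfam, which packages mitochondrial DNA, fell by 0.68 ± 0.19 in rapamycin foci (adjusted p = 0.047). The medians of the list were -0.45, -0.16 and -0.43 in AAF/PH liver, placebo foci and rapamycin foci. Over all genes they were 0.12, 0.04 and 0.07, and over genes above the median gene -0.21, -0.15 and -0.26.

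Markers of other cells stood as follows against normal liver. Of 10 stellate cell and matrix markers 5 were higher in AAF/PH liver and 1 in placebo foci, with sums of 666.7 to 903.1 in normal liver and 1566 to 4507 in AAF/PH liver. Of 10 macrophage markers 2 were higher and 1 lower in AAF/PH liver, 1 was lower in placebo foci and 3 were lower in rapamycin foci. Of 8 lymphocyte markers 1 was higher in AAF/PH liver and none was called in the foci. Of 7 endothelial markers 1 was higher and 1 lower in AAF/PH liver, 1 was lower in placebo foci and 1 in rapamycin foci. In the order AAF/PH liver, placebo foci and rapamycin foci, 20.0%, 8.22% and 6.53% of all genes were called. The shares were 50%, 10% and 0% for stellate cells and matrix, and 30%, 10% and 30% for macrophages. They were 12.5%, 0% and 0% for lymphocytes and 28.6%, 14.3% and 14.3% for endothelium.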
